A study of Mus musculus with 6 samples.

Results

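Genes of the carriers that move amino acids, small peptides and monocarboxylates across cell membranes were followed in RNA of isolated mouse collecting duct cells. They were chosen by symbol, as the mouse genes whose names begin with Slc1a, Slc3a, Slc6a, Slc7a, Slc15a, Slc16a, Slc36a, Slc38a or Slc43a, leaving out Slc6a6, Slc6a12 and Slc38a2. The rule itself uses no measured value, but it was set with earlier results of these data known. The rule gave 83 symbols in 9 families, of which 79 are carriers and 4 are genes named after a carrier on the opposite strand. All but Slc6a16 matched at least 1 counted identifier, which left 82 of the 24914 genes in the data. The cells came from kidneys of male C57BL/6J mice kept for 5 days on a low-NaCl diet with 0.01 to 0.02% sodium (3 libraries) or on a high-NaCl diet with 2.4% sodium (3 libraries). The labels name no genotype beyond the strain, no age and no group on an ordinary diet. The method of cell isolation and the number of mice behind a library are not stated either, so a p-value reflects scatter among libraries that could be partly technical.

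Epithelial cells of the kidney tubule take up amino acids from the filtrate or from blood through families of carriers that differ in their substrates and in what drives them. Sodium-coupled carriers of the Slc1, Slc6 and Slc38 families concentrate amino acids in the cell, and the Slc7 exchangers, joined by a disulfide bond to a heavy chain of the Slc3 family, swap one amino acid for another. Slc15 carriers move di- and tripeptides together with protons, Slc36 carriers move small amino acids with protons, and the Slc16 family holds the lactate and pyruvate carriers besides members with other substrates. Bulk reabsorption of filtered amino acids is the work of the proximal tubule, upstream of the collecting duct, and carriers of the duct are known mainly for feeding the cells themselves.

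Levels are given as CPM, read counts scaled to a common library size, as means ± SD with n = 3 per diet unless single libraries are listed, always in the order of libraries 1, 2 and 3. The libraries held between 40101899 and 46861531 counted reads. Only reads lying in exons of a single transcript identifier were counted, so each gene has a countable share, the percentage of its exonic bases that belong to 1 identifier. Mitochondrial reads made up 20.5 to 21.8% in the low-NaCl libraries and 21.9 to 29.9% in the high-NaCl libraries. By the file headers, library 1 of both diets shared sequencing lane 1, whereas lane 2 carried only low-NaCl and lane 3 only high-NaCl libraries. With lane as a term in the fit, the diet difference therefore comes from library 1 of each diet alone. Markers of principal cells, the duct's sodium and water transporting cells, summed to 4814 to 6603 CPM in low-NaCl libraries against 10021 to 12519.6 CPM in high-NaCl libraries, with 3 of 10 tested lower and none higher by edgeR and 7 lower by DESeq2. Of these 10 markers, 2 had positive and 8 negative log2 fold changes. By edgeR 1 was higher and 8 were lower at an unadjusted p under 0.05, where 18.3% of all tested genes were under it. Markers of intercalated cells, the duct's acid-base transporting cells, summed to 4553 to 8124 against 3639 to 4529 CPM, with 6 of 11 tested higher and none lower by edgeR and 9 higher by DESeq2. Those of the proximal tubule reached only 102 to 159 against 85.4 to 94.5 CPM, with 1 of 15 tested higher by either tool, and those of the thick limb and distal convoluted tubule 523 to 619 against 346 to 448 CPM, with 1 of 6 higher by edgeR and 3 by DESeq2. Over all 10564 tested genes edgeR called 182 higher and 184 lower, and DESeq2 409 and 448. Blood and immune markers summed to at most 4.96 CPM and endothelial and stromal ones to at most 9.63 CPM in any library, with none called by edgeR and 1, the endothelial Plvap, lower by DESeq2. At 0 in every library were Gata3, Slc22a8, Slc13a3, Hnf4a, Ptprc, Pecam1, Emcn and Pdgfrb, whose countable shares ran from 0 to 65.9%. In these bulk libraries fewer cells of a type and less RNA per cell cannot be told apart, and the part of the shifted cell markers in the results below was not tested.

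Most of the tested carriers were not called different between the diets, which does not by itself show equal levels. Of 37 members with enough reads to test, 1 rose on the low-NaCl diet, the neutral amino acid carrier Slc1a4, and none fell (edgeR quasi-likelihood test, adjusted p under 0.05 over 10564 genes). That is 2.70% of the tested members, against 3.46% of all tested genes called in either direction, 1.72% called higher and 1.74% called lower. At an unadjusted p under 0.05 there were 6 higher and 1 lower, 18.9% of the tested members against 18.3% of all genes (9.17% higher and 9.13% lower). DESeq2 called Slc1a4 and Slc43a3 higher, limma-voom called Slc1a4 alone, and neither called a member lower. The libraries of the diets did not overlap for 7 members that were higher and 2 that were lower, 24.3% of those tested, where 23.9% of all tested genes had diets that did not overlap (12.3% higher and 11.6% lower). The median log2 fold change, low-NaCl over high-NaCl, was -0.01 over the tested members and -0.00 over all tested genes. For 20 of the 24 tested members with a mean of at least 1 CPM, the approximate 95% interval of the difference stayed within a 2-fold change in either direction. The other 4 were Slc1a4, Slc16a8, Slc38a10 and Slc43a3. Summed over all members, reads came to 1018 ± 41.2 CPM in low-NaCl against 1025 ± 87.3 CPM in high-NaCl libraries. Of that sum 63.7% came from 2 members, Slc1a5 and Slc7a8, so it says little about the others.

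**Figure D1:**
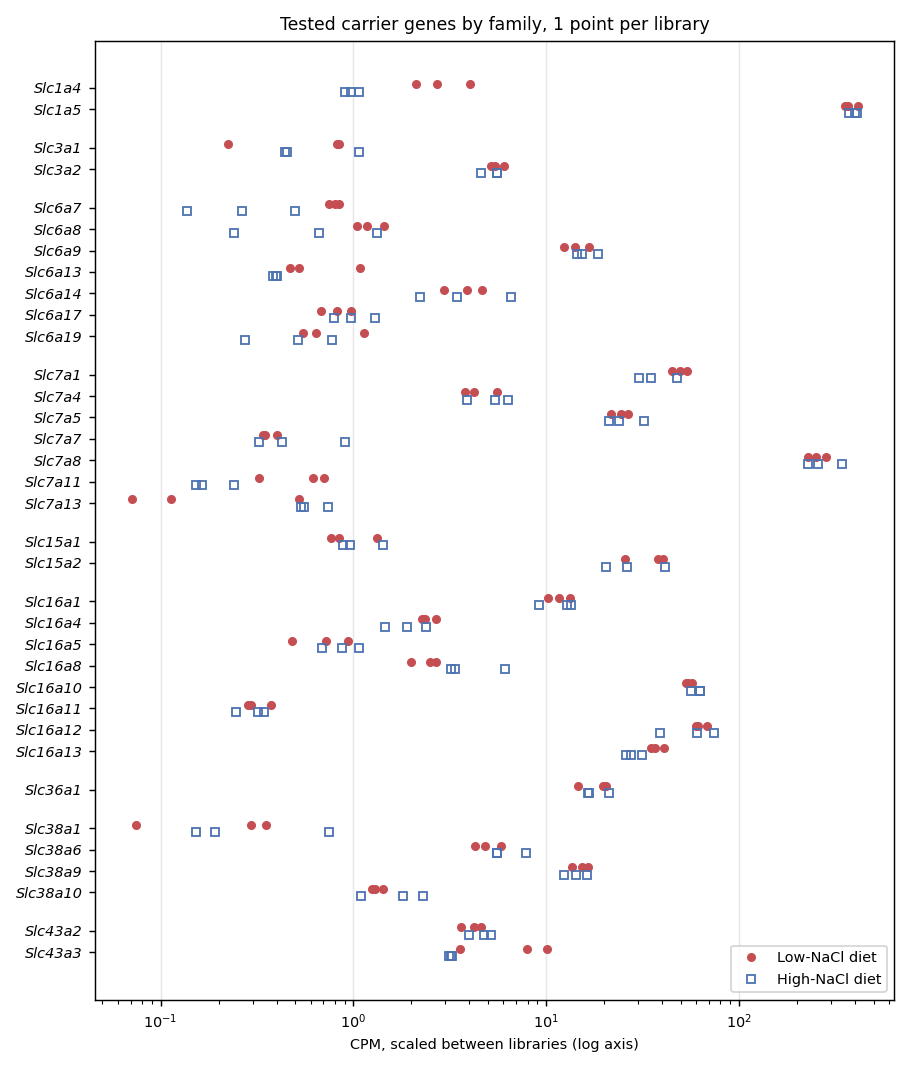
CPM of 35 tested carriers on a log axis, with 1 point per library, filled circles for the low-NaCl and open squares for the high-NaCl diet, grouped by family. Slc1a5 and Slc7a8 lie above all others, and the points of the diets overlap for most genes.

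**Figure D2:**
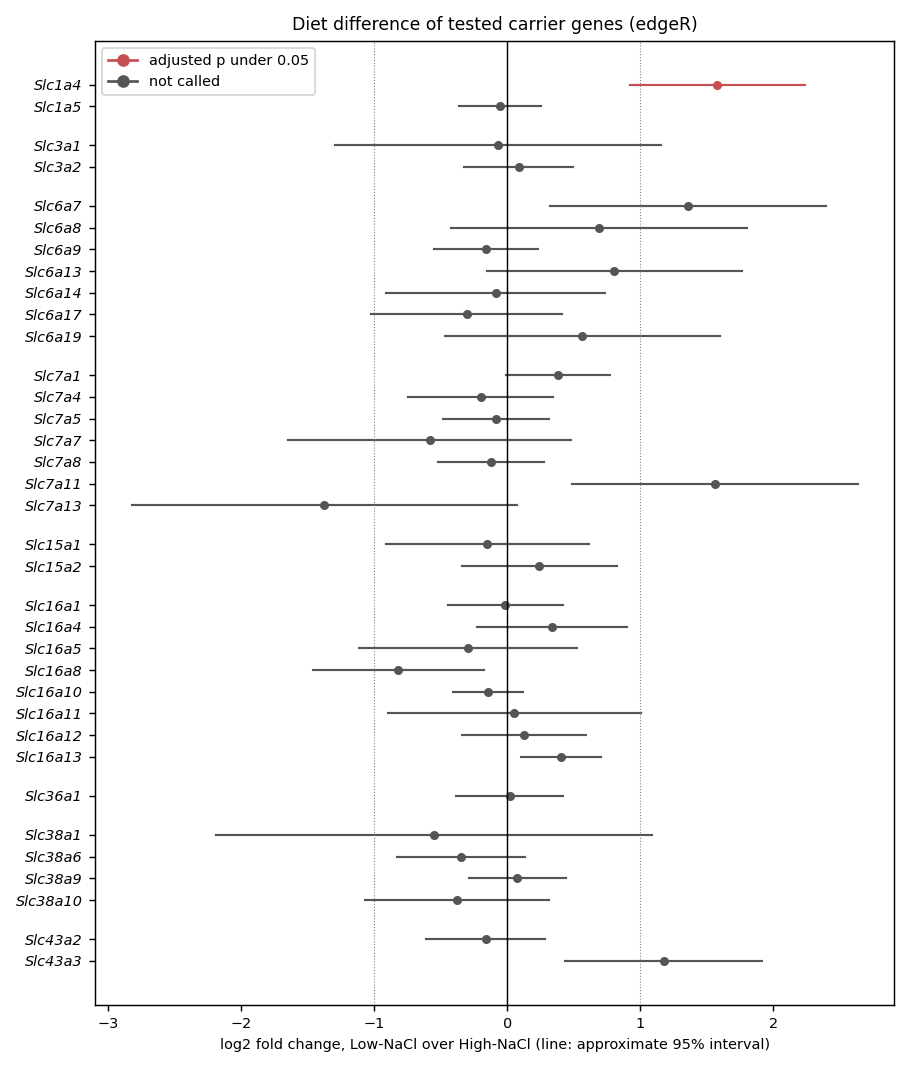
Log2 fold change of the same 35 carriers, low-NaCl over high-NaCl, with approximate 95% intervals as lines and dotted lines at a 2-fold change. Slc1a4 is the only one that passed, at 1.58.

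Slc1a carriers take up anionic or small neutral amino acids with sodium. Slc1a4, also called ASCT1, carries alanine, serine, cysteine and threonine. It lies on chromosome 11 (20302180 to 20332713, minus strand, GENCODE span on GRCm38) and was counted in a single identifier, uc007idb.2, with all of its exonic bases countable. Its level was 2.11, 2.71 and 4.01 CPM in the low-NaCl libraries, against 0.908, 0.975 and 1.06 CPM in the high-NaCl libraries. Every low-NaCl library was above every high-NaCl library, and the low-NaCl libraries differed more among themselves. The gene was 2.99-fold higher (2.94 ± 0.970 against 0.982 ± 0.0785 CPM, log2 fold change 1.58 ± 0.29 SE, edgeR adjusted p = 0.0231). The call rested on 498 reads over 6 libraries. It ended without low-NaCl library 2 or 3 (adjusted p = 0.0763 and 0.0832), without high-NaCl library 1 or 3 (0.0673 and 0.0829) and with lane as a term (0.385), while the log2 fold change under 22 alternatives lay between 1.22 and 1.76. Without high-NaCl libraries 1 and 3, which held over 25% mitochondrial reads, it was 1.57 (adjusted p = 0.152).

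Slc1a5, or ASCT2, is the main glutamine exchanger of many cells and was the most abundant member by reads, with 37.9% of all reads of the 82 genes. It measured 414, 369 and 355 CPM in the low-NaCl libraries, against 407, 400.5 and 373 CPM in the high-NaCl libraries. The ranges overlapped almost fully, and the difference was small against its error (log2 fold change -0.05 ± 0.14, 95% interval -0.36 to 0.26, adjusted p = 0.878). The glutamate carriers of the family, Slc1a1, Slc1a2, Slc1a3, Slc1a6 and Slc1a7, each had too few reads to test. Of those, Slc1a6 was fully countable, with 1 read in all, and 8.87% of the exonic bases of Slc1a2 were countable.

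Promoters are shown for Slc1a4, the member that passed, and for Slc7a11. The latter had the next highest fitted fold change of the tested members but did not pass (edgeR adjusted p = 0.117, on 93 reads). The windows are the 250 bases before the annotated start, from RefSeq (GRCm38.p6, minus strand in both), at chr11:20332714-20332963 and chr3:50443614-50443863. Capitals mark matches to TGATGNAAN, the C/EBP-ATF response element that ATF4, the transcription factor of the amino acid response, binds with its partners.
Slc1a4: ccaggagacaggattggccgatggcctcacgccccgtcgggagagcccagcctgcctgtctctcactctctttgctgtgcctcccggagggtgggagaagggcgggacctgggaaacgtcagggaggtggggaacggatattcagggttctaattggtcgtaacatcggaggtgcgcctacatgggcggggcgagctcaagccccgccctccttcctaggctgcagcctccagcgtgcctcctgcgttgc
Slc7a11: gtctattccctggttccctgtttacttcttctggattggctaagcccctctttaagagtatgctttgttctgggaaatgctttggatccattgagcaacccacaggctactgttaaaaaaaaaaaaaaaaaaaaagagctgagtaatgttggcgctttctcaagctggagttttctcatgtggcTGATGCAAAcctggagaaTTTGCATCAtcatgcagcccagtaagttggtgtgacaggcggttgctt
The Slc7a11 promoter held 2 matches on opposite strands, whose first letters lay 66 and 48 bases before the start, and the Slc1a4 window held none. Both strands of 77 promoters of 60 members were searched. TGATGNAAN was found in 4 of them (5.19%), those of Slc7a11, Slc7a7 and Slc6a21, and in 3.44% of all 32851 promoters. The palindromic response element of the glucocorticoid and mineralocorticoid receptors was found in 1 member promoter, that of Slc38a11, and in 0.387% of all promoters. The motifs were searched separately, and a match is a match of letters only.

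The heavy chain Slc3a2, also called 4F2hc or CD98, carries the light chains Slc7a5, Slc7a8 and Slc7a11 to the basolateral or plasma membrane. Slc3a2 measured 6.01, 5.44 and 5.19 CPM in the low-NaCl libraries, against 5.53, 4.57 and 5.59 CPM in the high-NaCl libraries. The ranges overlapped (log2 fold change 0.09 ± 0.18, adjusted p = 0.845), with 18.0% of exonic bases, 531 in all, open to counting. Slc3a1, or rBAT, the heavy chain of the proximal tubule cystine carrier, had 0.224, 0.842 and 0.825 CPM in the low-NaCl libraries, against 0.440, 1.07 and 0.452 CPM in the high-NaCl libraries. Its interval of -1.30 to 1.15 on the log2 scale left room for more than a 2-fold difference either way.

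Among the light chains and cationic carriers of the Slc7a family, 7 were tested and none passed. Slc7a8, or LAT2, an exchanger of large neutral amino acids known from basolateral membranes of kidney epithelia, was the next most abundant member after Slc1a5. Its level was 281, 228 and 249.4 CPM in the low-NaCl libraries, against 343, 255 and 227 CPM in the high-NaCl libraries. The lowest and highest libraries both belonged to the high-NaCl diet (log2 fold change -0.12 ± 0.18, 95% interval -0.52 to 0.28). Slc7a5, or LAT1, which brings leucine and other essential amino acids into growing cells, averaged 24.2 ± 2.45 against 25.7 ± 5.71 CPM (log2 fold change -0.08 ± 0.18, adjusted p = 0.844).

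Slc7a1, or CAT1, the general carrier of arginine and lysine, measured 44.7, 49.4 and 53.5 CPM in the low-NaCl libraries, against 30.4, 47.6 and 35.0 CPM in the high-NaCl libraries. High-NaCl library 2 lay among the low-NaCl libraries, and the other high-NaCl libraries lay below them. The log2 fold change of 0.38 ± 0.18 did not pass (edgeR adjusted p = 0.286), but without that library it was 0.59 and passed (0.0450). Calls over all genes also rose without that library, to 258 higher and 254 lower from 182 and 184. Slc7a11, or xCT, which exchanges glutamate for cystine and so supplies glutathione synthesis, had 0.323, 0.615 and 0.707 CPM in the low-NaCl libraries, against 0.165, 0.153 and 0.239 CPM in the high-NaCl libraries. The diets did not overlap, but the gene had 93 reads in all, and its log2 fold change of 1.56 ± 0.48 did not pass (adjusted p = 0.117). Slc7a13, a proximal tubule light chain, is named here after its values were seen. It had 0.522, 0.114 and 0.0707 CPM in the low-NaCl libraries, against 0.743, 0.554 and 0.532 CPM in the high-NaCl libraries (log2 fold change -1.37 ± 0.65, edgeR adjusted p = 0.301). It passed without low-NaCl library 1 (-2.68, adjusted p = 0.0364), a fit that called 292 genes higher and 186 lower. The remaining tested members, Slc7a4 and Slc7a7, had diets that overlapped and log2 fold changes of -0.20 and -0.58.

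Slc6a carriers move amino acids, neurotransmitters or creatine with sodium and chloride. Of 19 carriers 7 were tested and none passed. Slc6a9, the glycine carrier GlyT1, was the most abundant by reads at 12.3, 14.1 and 16.7 CPM in the low-NaCl libraries, against 18.5, 14.4 and 15.4 CPM in the high-NaCl libraries, with ranges that overlapped (log2 fold change -0.16 ± 0.17, adjusted p = 0.678). Slc6a14, a carrier of neutral and cationic amino acids, averaged 3.82 ± 0.868 against 4.08 ± 2.26 CPM and overlapped too. The proline carrier Slc6a7, known from brain, had 0.745, 0.842 and 0.802 CPM in the low-NaCl libraries, against 0.138, 0.497 and 0.266 CPM in the high-NaCl libraries. The diets were apart, and the log2 fold change of 1.36 ± 0.46 did not pass (adjusted p = 0.151, on 142 reads). Slc6a13, a carrier of GABA and taurine, also had diets apart, at 0.472, 0.524 and 1.08 CPM with low NaCl, against 0.385, 0.402 and 0.399 CPM with high NaCl, with an adjusted p of 0.365. The creatine carrier Slc6a8, 18.8% countable, averaged 1.22 ± 0.198 against 0.740 ± 0.544 CPM, with diets that overlapped (adjusted p = 0.513). Slc6a17, a neutral amino acid carrier of synaptic vesicles, averaged 0.826 ± 0.143 against 1.02 ± 0.251 CPM and overlapped as well.

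Of the carriers known for reabsorbing amino acids and cystine in the proximal tubule, several had few countable bases. Slc6a19, the main neutral amino acid carrier there, averaged 0.772 ± 0.315 CPM with low NaCl and 0.521 ± 0.248 CPM with high NaCl on 164 reads, with 16.4% of its exonic bases countable. Per kilobase of countable exon that was 1.93 ± 0.785 against 1.30 ± 0.619 CPM. Slc7a7, 14.2% countable, averaged 0.363 ± 0.0326 against 0.553 ± 0.311 CPM, or 1.02 ± 0.0913 against 1.55 ± 0.872 CPM per kilobase. Slc7a9 (24.4% countable), Slc1a1 (37.0%) and Slc6a20a (98.8%) had too few reads to test, and Slc6a18 had no countable base. Beside these values, the marker Slc27a2 rose in the proximal tubule list (50.1, 41.6 and 34.2 against 16.3, 24.1 and 21.1 CPM, edgeR adjusted p = 0.0228). Lrp2, the endocytic receptor megalin, measured 2.58, 16.2 and 28.7 against 11.4, 16.8 and 11.01 CPM (adjusted p = 0.851). Of the list's 15 tested markers, 11 had positive and 4 negative log2 fold changes. By edgeR 2 were higher and 1 lower at an unadjusted p under 0.05, where 18.3% of all tested genes were under it. The part of proximal tubule RNA in these members' levels was not tested.

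The peptide carrier Slc15a2, or PEPT2, a high-affinity carrier of di- and tripeptides, measured 40.3, 37.8 and 25.5 CPM in the low-NaCl libraries, against 41.3, 20.4 and 26.1 CPM in the high-NaCl libraries. Both diets held high and low libraries, and the difference did not pass (log2 fold change 0.24 ± 0.26, adjusted p = 0.679). One of its identifiers, uc012afh.1, held 31.7% of the reads on 187 countable bases. Slc15a1, or PEPT1, averaged 0.978 ± 0.299 against 1.09 ± 0.298 CPM. The remaining Slc15a members had too few reads to test. Of the proton-coupled Slc36a carriers only Slc36a1, or PAT1, of lysosomes and plasma membranes, was tested, at 18.3 ± 3.16 against 18.1 ± 2.66 CPM (log2 fold change 0.02 ± 0.18, adjusted p = 0.967). Just 0.671% of the exonic bases of Slc36a4 were countable, and no read was counted.

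The Slc16a family, which holds the monocarboxylate carriers and relatives with other substrates, had 9 of 14 members tested, and none passed. Its most abundant members by reads were Slc16a12, a creatine carrier, at 63.1 ± 4.75 against 57.9 ± 17.6 CPM, and Slc16a10, or TAT1, a carrier of aromatic amino acids, at 54.8 ± 1.75 against 60.7 ± 3.47 CPM (adjusted p = 0.802 and 0.562). Slc16a1, or MCT1, the general lactate and pyruvate carrier, had 10.2, 13.3 and 11.6 CPM in the low-NaCl libraries, against 9.19, 12.8 and 13.5 CPM in the high-NaCl libraries, and its interval ran from -0.45 to 0.42 on the log2 scale. The lactate exporter Slc16a3, or MCT4, had no counted read, with 3.73% of its exonic bases countable, so its level is not known.

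Slc16a13, whose physiological substrate is not settled, measured 36.7, 35.1 and 40.6 CPM in the low-NaCl libraries, against 31.5, 25.9 and 27.7 CPM in the high-NaCl libraries. The diets did not overlap, and the log2 fold change of 0.40 ± 0.14 did not pass (edgeR adjusted p = 0.145). Within lane 1 the difference was 0.22 on the log2(CPM + 0.5) scale. Slc16a8, or MCT3, a lactate carrier known from the retinal pigment epithelium, is named after its values were seen, as the only member with an unadjusted p under 0.05 that was lower. It had 2.48, 1.98 and 2.69 CPM in the low-NaCl libraries, against 6.08, 3.19 and 3.38 CPM in the high-NaCl libraries (log2 fold change -0.82 ± 0.29, adjusted p = 0.165). The tested members Slc16a4, Slc16a5 and Slc16a11 had diets that overlapped, with log2 fold changes of 0.34, -0.29 and 0.05.

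Of the sodium-coupled neutral amino acid carriers of the Slc38a family, 4 of 10 were tested and none passed. Slc38a9, the lysosomal arginine sensor upstream of mTORC1, measured 13.6, 16.4 and 15.3 CPM in the low-NaCl libraries, against 14.2, 16.3 and 12.4 CPM in the high-NaCl libraries. The values of the diets were interleaved (log2 fold change 0.08 ± 0.16, 95% interval -0.29 to 0.44). Slc38a6 averaged 4.98 ± 0.777 against 6.32 ± 1.32 CPM and Slc38a10 1.32 ± 0.0849 against 1.73 ± 0.601 CPM, with 15.2% of Slc38a10 countable and adjusted p-values of 0.439 and 0.569. Slc38a1, a glutamine carrier known from brain, averaged 0.241 ± 0.147 against 0.363 ± 0.331 CPM. Slc38a3, a glutamine carrier tied to renal ammonia production, had too few reads to test, with 18.9% of its exonic bases countable.

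Slc43a3, a carrier of purine nucleobases rather than amino acids, had the smallest p-value of any member that did not pass. It lies on chromosome 2 (84936579 to 84958509, plus strand) and measured 3.55, 7.97 and 10.1 CPM in the low-NaCl libraries, against 3.25, 3.12 and 3.19 CPM in the high-NaCl libraries. Low-NaCl libraries 2 and 3 stood well above the others, and low-NaCl library 1 lay close to the high-NaCl libraries. The gene was 2.26-fold higher, with a log2 fold change of 1.18 ± 0.33 (edgeR adjusted p = 0.0899). It passed by DESeq2 (0.0113), with no filter on low counts (0.0355) and without low-NaCl library 1 (0.00578), whereas with lane as a term the log2 fold change was 0.13 (adjusted p = 0.901). Over all genes the fit without low-NaCl library 1 called 292 higher and 186 lower, against 182 and 184 with all libraries. Within lane 1 the libraries measured 3.55 CPM with low NaCl and 3.25 CPM with high NaCl. Slc43a2, or LAT4, which lets branched-chain amino acids leave epithelial cells, averaged 4.14 ± 0.503 against 4.64 ± 0.597 CPM, with 19.4% of its exonic bases countable (adjusted p = 0.722).

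**Figure D3:**
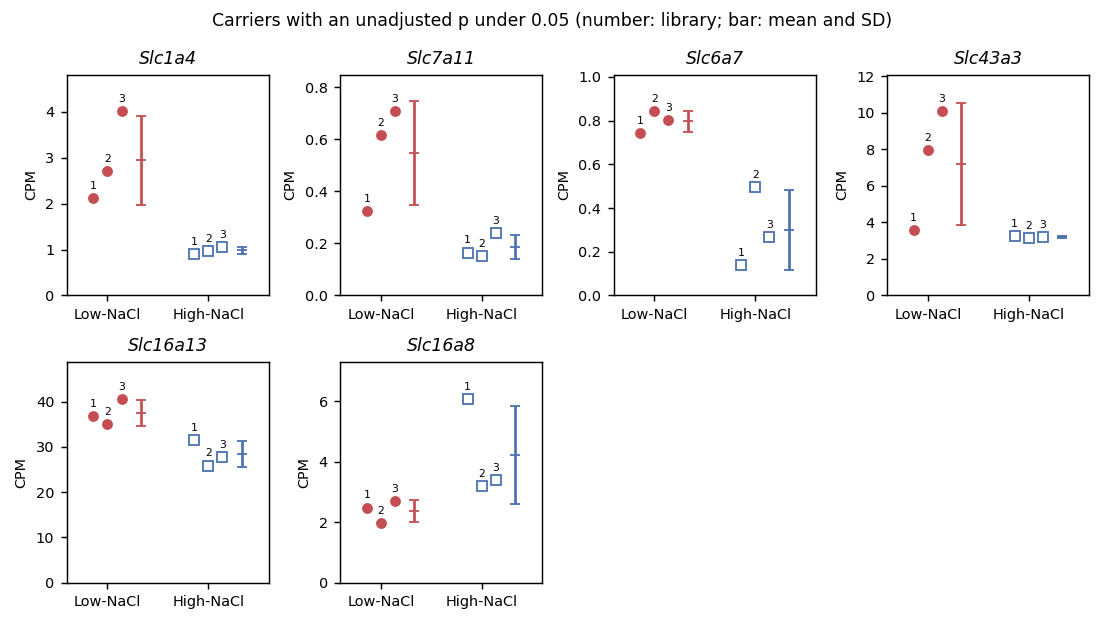
CPM per library of 6 carriers with an unadjusted p under 0.05, low-NaCl libraries left of high-NaCl libraries, numbered by library, with mean and SD as bars. In Slc43a3 low-NaCl library 1, at 3.55 CPM, sits beside the high-NaCl libraries, while in Slc1a4 all 3 low-NaCl libraries lie above 2 CPM.

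Levels were set against each other per kilobase of countable exon for the 27 tested members with at least 50% of exonic bases countable. Slc1a5 ranked first at 138 ± 11.1 CPM per kilobase with low NaCl and 143 ± 6.51 with high NaCl, and Slc7a8 followed at 67.4 ± 7.16 and 73.4 ± 16.2. Over all 6 libraries Slc1a5 kept to 129 to 150.2 CPM per kilobase and Slc7a8 to 60.4 to 91.6, so they did not overlap, and both lay above Slc16a12, at 10.1 to 19.1. The next ones, Slc16a13, Slc16a10, Slc15a2, Slc7a1, Slc7a5, Slc6a9 and Slc36a1, each overlapped the neighbour in the order, down to the gap between Slc36a1, at 4.38 to 6.30, and Slc16a1, at 2.08 to 3.05. Every later pair of neighbours overlapped. Slc1a4 ranked 19th of these, at 0.750 ± 0.247 CPM per kilobase with low NaCl and 0.250 ± 0.0200 with high NaCl, far below Slc1a5 of the same family on either diet. Slc7a11 was last, at 0.0451 ± 0.0165 and 0.0153 ± 0.00385.

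Of the 83 symbols 46 were not tested. Besides Slc6a16, which matched no identifier, 17 had no read in any library and 28 had reads but too few, with a highest mean of 0.242 CPM, that of Slc16a14. Among the 17 at 0, 10 had less than 10% of their exonic bases countable, so their level could not be measured, and 4 were fully countable, namely Slc6a11, Slc6a21, Slc38a8 and Slc36a1os. A count of 0 allows up to 3 reads, or 0.0574 to 0.0825 CPM per library, counting error only. Of the 4 opposite-strand genes only Slc7a6os was tested, at 1.03 ± 0.0626 against 0.730 ± 0.399 CPM (adjusted p = 0.591), and as strand was not used its reads cannot be told from antisense reads.

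**Figure D4:**
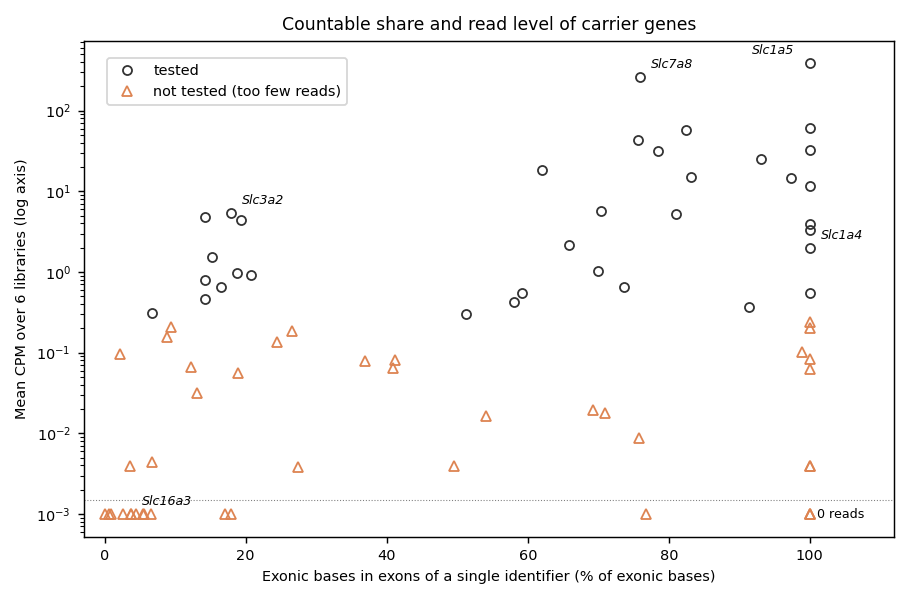
Countable share of exonic bases against mean CPM over 6 libraries on a log axis for 77 carriers with an identifier, as circles where tested and triangles where not, with genes without reads drawn below the dotted line. Slc3a2 is placed at 18.0% countable and Slc16a3, at 3.73%, has no read.

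Genes that work with these carriers or respond to amino acid supply were taken from lists. Of 6 tested partners of the carriers 1 rose, Sgk1, the aldosterone-induced kinase (edgeR adjusted p = 0.0417, none by limma-voom), where 3.46% of all tested genes were called. The log2 fold changes of the 6 partners ran from -0.30 to 3.35, with 4 positive and 2 negative. Emb, or embigin, a chaperone of monocarboxylate carriers, measured 292, 337 and 291 CPM in the low-NaCl libraries, against 209, 212 and 221 CPM in the high-NaCl libraries. The diets were apart, and the log2 fold change of 0.52 did not pass by edgeR (adjusted p = 0.0676) but did by DESeq2. Of 8 tested amino acid and monocarboxylate carriers of other families none passed by edgeR, DESeq2 or limma-voom, and 1 had an unadjusted p under 0.05 by edgeR, the mitochondrial pyruvate carrier subunit Mpc1 (log2 fold change 0.37, adjusted p = 0.194). Their median log2 fold change was 0.07.

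Of 27 tested genes of amino acid sensing and the amino acid response 1 rose, Ddit3, which encodes the stress transcription factor CHOP, and none fell, where 3.46% of all tested genes were called. At an unadjusted p under 0.05 there were 5 higher and 3 lower. Of all tested genes 18.3% were under that cutoff, 9.17% higher and 9.13% lower. The genes named below all had higher means on the low-NaCl diet, while the list had 12 positive and 15 negative log2 fold changes. None of the 3 lower ones is named. DESeq2 called 3 higher, Atf4, Ddit3 and Phgdh, the first enzyme of serine synthesis, and limma-voom called Ddit3 alone. It measured 52.5, 43.4 and 53.9 CPM in the low-NaCl libraries, against 27.3, 32.3 and 31.6 CPM in the high-NaCl libraries (log2 fold change 0.71, edgeR adjusted p = 0.0287). Every low-NaCl library lay above every high-NaCl library. Chac1, a glutathione-degrading enzyme, had 1.86, 14.8 and 4.88 against 2.15, 0.975 and 1.97 CPM and did not pass (adjusted p = 0.113), with most of the difference in low-NaCl library 2. Atf4 and Phgdh are named after their values were seen. Atf4 measured 328, 261 and 327 CPM in the low-NaCl libraries, against 203, 236 and 219.5 CPM in the high-NaCl libraries, and did not pass by edgeR (adjusted p = 0.120). Phgdh measured 61.1, 37.2 and 36.9 CPM in the low-NaCl libraries, against 26.05, 18.7 and 33.3 CPM in the high-NaCl libraries, and did not pass by edgeR (log2 fold change 0.80, adjusted p = 0.125). The list's median log2 fold change was -0.04.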

How the data were processed

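The authors used, per the file headers, featureCounts 1.5.0-p3 on each library, with UCSC exons on mm10 and no option for strand or overlaps, and the deposited values are those raw counts. FastQC, Subread and edgeR appear in the submitters' processing notes, while the aligner is not given in the sources used here.

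Each identifier was matched to GENCODE vM21 by identical introns (41510 identifiers) or, failing that, by at least 50% of exonic bases on the same strand (11061). Counts were summed per symbol. Identifiers with no match (6550, with 5.57% of counts) were kept in the library sizes and not tested. Counts were fitted with edgeR 4.0.16 in R 4.3.3 (filterByExpr, TMM, robust glmQLFit, glmQLFTest, no covariates), adjusted by Benjamini-Hochberg with a threshold of 0.05. The SE is the log2 fold change over the square root of F, and 95% intervals use it with the fit's degrees of freedom. Limma 3.58.1, DESeq2 1.42.0 and Python 3.11.15 served alternatives and tables. The fitting procedure was also tested on counts simulated from the means, spread and library sizes of these data. There it called 41.7% of genes changed 2-fold and 86.5% of those changed 4-fold, and 8.21% of its calls were false. No pair of libraries of a diet matched within sampling noise (chi-square over its degrees of freedom 39.6 to 353).

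Named by rule were every called member, Slc3a1 and Slc3a2, and per family the 3 tested members with most reads and the 2 with the smallest p. Other members were named outside that rule, among them Slc6a17, Slc6a19, Slc7a4, Slc7a7, Slc7a13, Slc16a1 and Slc16a8. The proximal tubule marker Lrp2 was also named outside it. One member counted among the totals is not reported here by name or in the figures. Members and lists were chosen with earlier results of these data known.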

Additional observations from a re-analysis of the deposited data

How the results depend on the processing

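Over 22 alternatives, 790 member values were recomputed. In 779 of them the member stayed on its side of the threshold, in 6 the call of Slc1a4 was lost, in 5 a call was gained, and no called value changed sign. The 1 member higher on the low-NaCl diet became 2 with no filter on low counts and 2 by DESeq2, both times with Slc43a3 added, 0 with lane as a term, and 0 without the libraries with over 25% mitochondrial reads, an alternative chosen after the data were seen, which leaves 1 high-NaCl library assumed to vary like the others. Without each library in turn 0 to 2 members were higher and 0 to 1 lower, where 0 was the main count. Over all genes the fits without each library called 34 to 292 higher and 36 to 254 lower. With the replicate number as a block 1 member was higher and 0 were lower, as without it, while over all genes calls came to 465 higher and 447 lower against 182 and 184. Deviations of same-numbered libraries correlated at 0.30, 0.37 and -0.06, and those of differently numbered ones at -0.37 to 0.11. Whether the numbers of the labels pair the libraries was not settled by these values. Calls over all genes with lane as a term were 1 and 2, with DESeq2 409 and 448, and with total-count scaling 81 and 55. The cause of these changes was not tested. Depth and the countable share limit what could be seen, since 10 of the 37 tested members had under 50% of exonic bases countable.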
